A study of Mus musculus with 6 samples.

Results

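Cluster 0 of the NG2 line is the group of *NG2-tdT+* brain cells that the study calls activated pericytes. Its members were taken from the cluster number that the authors deposited for each cell, and it holds 2164 of the 10455 cells of the 3 NG2 libraries, in a series of 17033 cells from 6 libraries. Of the 2164 cells, 1280 came from the naïve library, 381 from the physical injury library and 503 from the ischemic injury library. The comparison groups were clusters 1 and 2 of the same table, with 1713 and 1557 cells, which the study calls canonical pericytes. The mice of the NG2 line were *NG2-Cre-ERT2/Ai14-flx* animals aged 3 to 4 months that had received tamoxifen, so that cells with an active NG2 (*Cspg4*) promoter, and any cells that arose from them, carry the tdTomato reporter. The promoter is also active in oligodendrocyte precursor cells (OPC), and the sort therefore takes in cells other than pericytes. Naïve mice had no injury. In the physical injury group saline was injected into the cortex 7 days after tamoxifen, and in the ischemic injury group the vasoconstrictor endothelin-1 together with L-NAME, an inhibitor of nitric oxide synthesis, was injected in its place, with cells collected 3 days later in both. Cortices of several animals of both sexes were pooled, digested with papain, sorted for tdT+/DAPI- cells and captured as 1 droplet library per condition. A few values are compared with the Tbx18 line, that is, *Tbx18-CreERT2/Ai14-flx* mice of the same age range with tamoxifen, in which the *Tbx18* promoter of mural cells drives the recombinase, with 1 library for each of the same 3 conditions.

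Pericytes are mural cells that lie within the basement membrane of capillaries, where they regulate capillary tone, endothelial quiescence and the blood-brain barrier. Immediate early genes such as *Fos*, *Jun* and *Egr1* are transcribed within minutes of a stimulus without new protein synthesis, their products are transcription factors of the AP-1 and EGR families, and a companion set of short-lived inhibitors (phosphatases, mRNA decay factors, SOCS proteins) ends the response. Heat shock genes such as *Hspa1a* and *Hspa1b* encode inducible chaperones that refold proteins and are driven by the factor HSF1 through heat shock elements. Both gene groups respond to many stimuli, among them injury, ischemia and the handling of tissue.

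The values are unique molecular identifier (UMI) counts, that is, counts of captured mRNA molecules. Cluster 0 held 5491985 UMIs in the naïve, 1949411 in the physical injury and 2358210 in the ischemic injury library, with medians of 4122.5, 4944 and 4547 UMIs per cell. The cells of cluster 1 were shallower (3054.5, 3843.5 and 2984 UMIs) and those of cluster 2 slightly deeper (4376, 5145 and 4755 UMIs). A level is the summed UMIs of a gene in the cells that share a cluster and a library, per 1000000 UMIs of those cells (CPM), with its exact Poisson 95% interval in parentheses. Each condition is 1 library without a replicate, so no test was made, and the intervals hold counting error alone and say nothing of how animals or sorts vary. The clusters were formed on the expression of these same cells, so a difference between clusters is a description of what the clustering separated. A gene is called higher or lower when its log2 ratio, taken with 1 CPM added to both levels, reached 2-fold, among genes with a mean of at least 20 CPM over the groups compared. Between 2 and 5 cell barcodes were shared by each pair of NG2 libraries, and in no case were both cells in cluster 0.

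The cells of cluster 0 carried the pericyte programme at the level of their neighbours. *Vtn*, which encodes the matrix glycoprotein vitronectin and marks brain pericytes, stood at 18700.0 CPM (18586 to 18815) in the naïve library, 18706 CPM (18515 to 18899) after physical injury and 17320.3 CPM (17153 to 17489) after ischemic injury. Cluster 1 was higher, at 22685, 22918 and 21521 CPM in the same order, and cluster 2 lower, at 16739.7, 15991 and 16110.0 CPM. *Kcnj8*, the pore subunit of the ATP-sensitive potassium channel of pericytes, stood at 1665, 1668 and 1641 CPM in cluster 0, 1643, 1546 and 1484 CPM in cluster 1 and 1305, 1086 and 1173 CPM in cluster 2. These are small differences, and of the 27 of 30 pericyte identity genes that passed the level filter in all 6 ratios (cluster 0 over cluster 1 or 2, in each of 3 libraries), 0 were 2-fold higher or lower in every library. Of all genes tested, 0.446% were higher and 0.0% lower than in cluster 1, and 0.409% and 0.106% than in cluster 2. With shares so small, nothing is read from this 0. The median log2 ratio of this list was -0.083 ± 0.077 over cluster 1 and -0.0022 ± 0.039 over cluster 2 (SD over the 3 libraries), and that of all genes lay between -0.051 and -0.0040. *Pdgfrb*, the receptor that holds pericytes on the vessel, differed by -0.28 to -0.0071 on the log2 scale, and *Rgs5*, a regulator of G protein signalling, by -0.19 to 0.0089. With each cell thinned to 1000 UMIs, a *Kcnj8* UMI was found in 73.5%, 75.9% and 74.5% of cluster 0 cells (98.0%, 98.4% and 97.2% unthinned), against 2.02%, 0.342% and 0.874% of the oligodendrocyte-like cells of cluster 4 (9.71%, 3.40% and 5.07% unthinned), whose median depths were 13252, 23779 and 29600.5 UMIs.

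Markers of the other cell types that the gate could hold were measured in cluster 0 as well. Few passed the level filter in all 6 ratios: 3 of 12 endothelial, 2 of 8 smooth muscle, 5 of 10 fibroblast and mesenchymal and 2 of 11 oligodendrocyte markers. It was 2 of 10 for astrocyte, 1 of 9 for neuron and 0 for OPC, microglia and red blood cell markers. Of those that passed, 0 were 2-fold higher than in cluster 1 or cluster 2 in every library. The shares of all genes tested were 0.446% and 0.409%, so nothing is read from this 0. A UMI of the endothelial gene *Cldn5*, a tight junction protein, was found in 0.0783%, 1.31% and 0.199% of thinned cluster 0 cells (0.312%, 3.15% and 0.795% unthinned), against 94.0%, 98.5% and 96.9% in the endothelial-like cluster 5. The summed level of 12 endothelial markers in cluster 0 was 666, 755 and 753 CPM, mostly from *Esam* at 399.7, 383 and 427 CPM, and *Cdh5* was at 0 in the naïve library. The 12 microglia and macrophage markers summed to 28.8, 34.4 and 40.3 CPM with *Mrc1* as the most abundant, and *C1qa* was at 0 in the naïve and physical injury libraries. The 10 OPC markers summed to 35.1, 41.0 and 82.7 CPM. The 10 astrocyte markers summed to 3524, 3238 and 3652 CPM through *Sparcl1* (2724, 2526 and 2917 CPM), with *Aqp4* and *Aldh1l1* at 0 in every library, and the 9 neuron markers to 228, 396 and 313 CPM through the noncoding RNA *Meg3*. The 10 fibroblast and mesenchymal markers summed to 485, 543 and 536 CPM, with *Col1a1* at 0 in the naïve and ischemic injury libraries. The 8 smooth muscle markers stood at 231, 215 and 205 CPM and the 5 red blood cell markers at 1.27, 5.13 and 3.39 CPM. The 11 oligodendrocyte markers were less even, at 293 CPM in the naïve, 181 CPM in the physical injury and 525 CPM in the ischemic injury library. They moved in the same order in cluster 1 (347, 256 and 756 CPM) and cluster 2 (297, 206 and 504 CPM), and their part in the library comparisons was not tested. Summed over the endothelial, smooth muscle, oligodendrocyte and microglia lists, 682 of 1280, 241 of 381 and 376 of 503 cells of cluster 0 held at least 5 UMIs of these markers, and these are the cells bearing markers of other types that one alternative leaves out. The cut takes no account of depth, so deeper cells reach it more readily, and *Esam* alone stood at 383 to 427 CPM. A cell over the cut need not be of another type, so a call lost without these cells says nothing of other types.

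The genes that set cluster 0 apart were immediate early and heat shock genes. To show regulatory DNA of both gene groups, the 250 bases before the start site are printed (RefSeq, GRCm38.p6, 5′ to 3′ on the strand of the gene). The genes shown are 4 immediate early genes and the pair of inducible HSP70 genes. The stretch of *Fos* is chr12:85473640-85473889, plus strand, that of *Jun* chr4:95052223-95052472, minus strand, that of *Dusp1* chr17:26508473-26508722, minus strand, that of *Zfp36* chr7:28379229-28379478, minus strand, that of *Hspa1a* chr17:34972157-34972406, minus strand and that of *Hspa1b* chr17:34959239-34959488, minus strand. Capitals mark matches, on either strand, to the cyclic AMP response element (CRE, TGACGTCA), its core TGACG, the heat shock element GAANNTTC, the TATA box TATAAA and the CArG box, which serum response factor binds.
Fos: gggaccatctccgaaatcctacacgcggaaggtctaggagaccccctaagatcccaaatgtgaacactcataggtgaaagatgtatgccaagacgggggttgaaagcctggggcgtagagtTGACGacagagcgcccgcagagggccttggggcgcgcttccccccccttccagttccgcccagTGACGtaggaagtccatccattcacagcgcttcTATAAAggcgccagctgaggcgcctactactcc
Jun: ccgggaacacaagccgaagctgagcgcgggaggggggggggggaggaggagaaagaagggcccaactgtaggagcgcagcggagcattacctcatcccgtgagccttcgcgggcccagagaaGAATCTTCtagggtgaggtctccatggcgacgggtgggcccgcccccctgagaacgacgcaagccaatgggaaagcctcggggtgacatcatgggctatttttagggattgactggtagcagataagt
Dusp1: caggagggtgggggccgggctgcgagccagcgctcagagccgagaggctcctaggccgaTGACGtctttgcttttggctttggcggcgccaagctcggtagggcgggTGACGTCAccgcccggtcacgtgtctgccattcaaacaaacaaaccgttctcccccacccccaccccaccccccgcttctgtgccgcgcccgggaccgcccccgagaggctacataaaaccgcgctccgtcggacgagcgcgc
Zfp36: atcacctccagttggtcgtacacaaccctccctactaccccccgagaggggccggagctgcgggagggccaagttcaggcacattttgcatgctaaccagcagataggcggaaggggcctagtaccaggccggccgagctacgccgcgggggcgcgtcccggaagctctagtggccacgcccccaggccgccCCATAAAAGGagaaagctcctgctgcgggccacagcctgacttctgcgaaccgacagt
Hspa1a: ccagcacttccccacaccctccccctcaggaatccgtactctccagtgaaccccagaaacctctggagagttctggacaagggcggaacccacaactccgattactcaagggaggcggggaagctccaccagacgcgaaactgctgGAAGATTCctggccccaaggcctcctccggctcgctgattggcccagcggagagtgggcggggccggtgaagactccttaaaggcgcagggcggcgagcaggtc
Hspa1b: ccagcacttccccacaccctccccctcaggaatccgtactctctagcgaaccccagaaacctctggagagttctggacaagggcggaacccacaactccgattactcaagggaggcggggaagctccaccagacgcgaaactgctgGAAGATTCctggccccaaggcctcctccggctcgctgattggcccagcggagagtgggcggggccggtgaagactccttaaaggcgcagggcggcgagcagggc

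Among the 15 genes with the highest mean log2 ratio in cluster 0, 14 had a promoter entry. The CRE core TGACG was present in 9 of the 14 (*Atf3*, *Cxcl1*, *Dnajb1*, *Dusp1*, *Fos*, *Fosb*, *Junb*, *Klf2* and *Klf4*), against 17.8% of all 32851 promoters of the same length, 4 of 25 promoters of pericyte identity genes and 10 of 20 of heat shock and chaperone genes. The full CRE, which contains the core, was in *Dusp1* and in 1.55% of all promoters. The AP-1 element TGAGTCA was in 0 of the 14 and in 4.46% of all promoters. A heat shock element was in *Hspa1a*, *Hspa1b* and *Jun*, in 7 of 20 promoters of the heat shock list and in 6.69% of all promoters. It was also in 4 of 25 promoters of pericyte identity genes, *Kcnj8* among them. Its inverted form TTCNNGAA was in 0 of the 14, 4 of 20 of the heat shock list, 3 of 25 of the pericyte list and 7.17% of all promoters. The TATA box was in *Fos* (12.4% of all) and the CArG box in *Zfp36* (1.47% of all). A match is a description of these letters, and no match says nothing of a factor. The printed stretches of *Hspa1a* and *Hspa1b* share 247 of 250 bases (98.8%), and the genes are near-identical copies, so the division of UMIs between them is uncertain.

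Against cluster 1, 29 genes were at least 2-fold higher in cluster 0 in every library (0.446% of 6503 tested) and 0 were at least 2-fold lower (0.0%). Against cluster 2, 27 genes were higher (0.409% of 6609) and 7 lower (0.106%). The clusters were formed on these contrasts and nothing is read from the shares. Higher than both neighbours in every library were 22 of the 6348 genes with all 6 ratios. This is the share over all genes for each list count of genes above both neighbours below. Of these 22, 19 are in the lists of immediate early, feedback, KLF and heat shock genes, and the other 3 include *Cxcl1* and *Ccn1*. Of the 6348 genes with all 6 ratios, 331 were higher and 352 lower in cluster 0 in each of them.

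The AP-1 and EGR genes that passed the filter were higher in cluster 0 in all 6 ratios. *Fos* (chr12:85473890-85477273, plus strand, mm10, GENCODE M21) stood at 9475 CPM (9394 to 9557) in the naïve library, 4338 CPM (4246 to 4431) after physical injury and 9849.8 CPM (9724 to 9977) after ischemic injury. In cluster 1 it stood at 1897, 625 and 1357 CPM and in cluster 2 at 1821, 969.9 and 1972 CPM. The lowest level of *Fos* in cluster 0, after physical injury, exceeded the highest in either neighbour, and its log2 ratio was 2.32, 2.79 and 2.86 over cluster 1 and 2.38, 2.16 and 2.32 over cluster 2. *Jun* (chr4:95049034-95052222, minus strand), the partner of *Fos* in the AP-1 dimer, stood at 11069 CPM (10981 to 11157) in the naïve library, 4676 CPM (4580.3 to 4773) after physical injury and 8068 CPM (7954 to 8183) after ischemic injury, against 2977, 907 and 1112 CPM in cluster 1 and 3142, 1306 and 1766 CPM in cluster 2. Here too the groups did not overlap, and the 6 log2 ratios ran from 1.82 to 2.86. *Egr1*, a zinc finger factor induced by growth factors, was at 3527, 1358 and 4291 CPM in cluster 0, at 495, 157 and 383 CPM in cluster 1 and at 646, 283 and 683 CPM in cluster 2.

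*Atf3*, a stress-induced factor that dimerises with JUN proteins, was at 503 CPM (484 to 522) in the naïve library, 119 CPM (104 to 135) after physical injury and 478 CPM (450.4 to 507) after ischemic injury. Its levels in cluster 1 were 38.0, 12.4 and 70.5 CPM and in cluster 2 61.0, 22.7 and 79.6 CPM, which makes it the AP-1 gene with the largest mean log2 ratio among those tested (2.92, range 2.34 to 3.69). The other members that were 2-fold higher throughout were *Fosb* (mean log2 ratio 2.63), *Junb* (2.37) and *Jund* (1.57). *Nr4a1*, an orphan nuclear receptor, was 2-fold higher than cluster 1 in every library but not than cluster 2 after physical injury, where its log2 ratio was 0.65. In all, 7 of the 9 of 18 listed AP-1, EGR and NR4A genes that passed the filter were higher than both neighbours (22 of 6348 over all genes), and the other 2 were *Nr4a1* and *Mafk*. The median log2 ratio of the list was 2.01, 2.41 and 2.74 over cluster 1 (mean 2.39 ± 0.37, SD, n = 3 libraries) and 1.87, 1.97 and 2.22 over cluster 2 (2.02 ± 0.18), in the order naïve, physical and ischemic injury. A low member could pass the filter through cluster 0 alone, and without the filter the mean medians were 1.89 and 1.55.

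**Figure D1:**
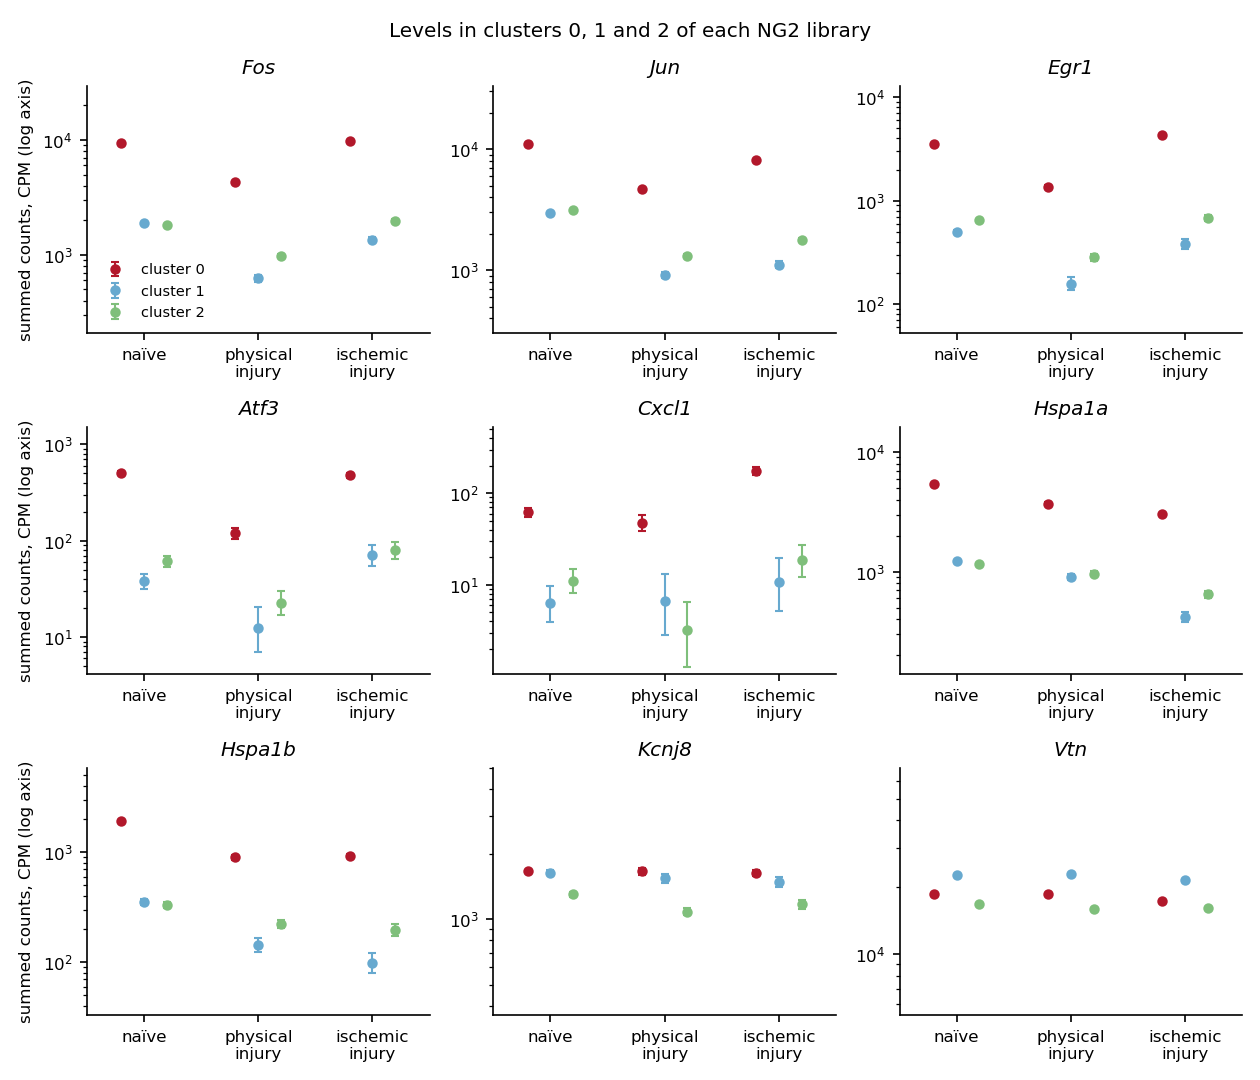
Levels in CPM (log axis) of 9 genes in clusters 0 (red), 1 (blue) and 2 (green) of the naïve, physical injury and ischemic injury NG2 libraries, with exact Poisson 95% intervals from the summed counts of 1 library each. *Fos*, *Jun*, *Egr1*, *Atf3*, *Cxcl1*, *Hspa1a* and *Hspa1b* lie above both neighbours in cluster 0 in every library, while *Kcnj8* and *Vtn* lie close together.

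Some of the feedback genes that limit this response were higher as well. *Dusp1*, a phosphatase that inactivates MAP kinases, stood at 1125, 439.6 and 1063 CPM in cluster 0, 313, 104 and 144 CPM in cluster 1 and 258, 138 and 213 CPM in cluster 2. *Zfp36*, which destabilises cytokine mRNAs, stood at 656, 451 and 789 CPM in cluster 0, 169.5, 107 and 123 CPM in cluster 1 and 156, 98.6 and 185 CPM in cluster 2. Cluster 0 was above both neighbours in each library for both genes. *Socs3*, an inhibitor of JAK-STAT signalling, had a mean log2 ratio of 2.36 (range 2.03 to 2.95), *Ier2* of 2.05, *Btg2*, an antiproliferative gene, of 1.63, *Nfkbiz*, an IκB family member, of 1.60, and *Ppp1r15a*, which directs dephosphorylation of eIF2α, of 1.74. These 7 of the 19 feedback genes that passed the filter (of 30 listed) were 2-fold higher than both neighbours in every library, although *Nfkbiz* lost its call against cluster 2 with a pseudocount of 5 CPM, thinned cells, per-cell means, or without cells bearing markers of other types. *Rhob*, a small GTPase, passed against cluster 2 only, and *Nfkbia*, the inhibitor IκBα, ran from 0.56 to 1.06 on the log2 scale. Of 7 KLF factors that passed (of 10), *Klf2* (mean log2 ratio 2.52) and *Klf4* (2.90) were higher. *Klf4* stood at 292, 151 and 338 CPM in cluster 0, 38.6, 14.1 and 34.2 CPM in cluster 1 and 55.7, 17.7 and 59.5 CPM in cluster 2. Both are zinc finger factors, and of the other 5 *Klf6* ran from 0.83 to 1.86, while *Klf3*, *Klf7*, *Klf9* and *Klf13* stayed under 2-fold in all 6 ratios.

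The heat shock genes furthest apart between the clusters were *Hspa1a*, *Hspa1b* and *Dnajb1*. *Hspa1a* (chr17:34969190-34972156, minus strand) stood at 5392 CPM (5331 to 5454) in the naïve library, 3702 CPM (3617 to 3789) after physical injury and 3032 CPM (2962 to 3103) after ischemic injury, against 1222, 906 and 419 CPM in cluster 1 and 1148, 962 and 646 CPM in cluster 2. *Hspa1b* (chr17:34956436-34959238, minus strand) stood at 1936 CPM (1899.8 to 1974) in the naïve library, 898 CPM (856 to 941) after physical injury and 917 CPM (879 to 956) after ischemic injury, against 352, 144 and 99.3 CPM in cluster 1 and 331, 222 and 196 CPM in cluster 2. Cluster 0 lay above both neighbours in every library for either copy, with mean log2 ratios of 2.24 and 2.51. *Dnajb1*, the HSP40 co-chaperone of HSP70, had a mean log2 ratio of 2.15 (range 1.76 to 2.43). *Hsph1*, the HSP110 nucleotide exchange factor, ran from 0.96 to 2.39 and *Hspb1*, the small chaperone HSP27, from 0.69 to 1.60. *Hspa8*, the constitutive HSP70, ran from 0.21 to 0.99 and *Hsp90aa1*, an HSP90 isoform, from 0.54 to 0.80. Thus 3 of 21 heat shock and chaperone genes that passed the filter (of 25) were 2-fold higher than both neighbours in every library, against 22 of 6348 over all genes. The median log2 ratio of the list was 0.29 ± 0.069 over cluster 1 and 0.39 ± 0.030 over cluster 2 (SD, n = 3 libraries).

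*Cxcl1* and *Ccn1*, which are outside these lists, encode secreted proteins. *Cxcl1*, a neutrophil chemokine, had the highest mean log2 ratio of the 22 (3.14). Its level in cluster 0 was 62.1 CPM (55.7 to 69.0) in the naïve library, 47.7 CPM (38.5 to 58.4) after physical injury and 176 CPM (159.9 to 194) after ischemic injury, and in clusters 1 and 2 it stayed at or under 18.6 CPM in every library, so that it passed the filter through cluster 0 alone, and in thinned cells it lost its call against cluster 2. It was higher still in the mesenchymal-like cluster 8, at 655, 719 and 686 CPM, where it is the fourth of the leading genes by mean log2 ratio to the other cells (4.63). *Ccn1*, a matricellular protein, was at 200.1, 145 and 204 CPM in cluster 0, 60.7, 49.7 and 55.5 CPM in cluster 1 and 62.8, 51.3 and 69.2 CPM in cluster 2. They were the only members of their lists to be called, with 1 of 4 cytokine and adhesion genes and 1 of 12 growth factors and vascular ligands that passed the filter, and *Ccn1* lost its call against cluster 1 without cells bearing markers of other types.

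Other stress and metabolic programmes differed less between the clusters. Of 16 genes of the unfolded protein and integrated stress response that passed, 0 reached 2-fold in every library, and their median log2 ratio lay between -0.23 and 0.10 over the 6 ratios, with *Atf4* as the highest member in all 6. The hypoxia list (12 genes) had medians of -0.10 to 0.31 and the interferon list (9 genes) of -0.38 to 0.10, each with 0 genes called against both neighbours. Only 22 of all 6348 genes with the 6 ratios were higher than both neighbours, so nothing is read from these counts of 0. The oxidative phosphorylation list was between the neighbours, with medians of -0.46 to -0.36 over cluster 1 and of 0.14 to 0.19 over cluster 2. The mitotic list summed to 91.4, 103 and 126 CPM in cluster 0, most of it from *Pcna*, and *Mki67* was at 0 after physical injury.

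The 7 genes at least 2-fold lower than in cluster 2 in every library were *Acta2*, *Myh11*, *Carmn*, *Ctnna3*, *Dgkb*, *Zbtb7c* and *Gm26917*. Of the 16 of 25 contractile and calcium genes that passed the filter in all 6 ratios, 1 (*Myh11*) was 2-fold lower than in cluster 2 in every library, a call lost with per-cell means, and 0 were lower than in cluster 1, while *Acta2*, also on the list, passed the filter against cluster 2 but not in all 6 ratios. *Zbtb7c* and *Gm26917* were no longer called with TMM, median-of-ratios scaling, a pseudocount of 5 CPM or thinned cells, and without cells bearing markers of other types, smooth muscle among them, 3 of the 7 remained (*Carmn*, *Dgkb* and *Gm26917*). *Acta2* and *Myh11* are themselves among the markers that define the cells left out, so nothing is read from the loss of their calls there. *Acta2*, smooth muscle actin, was at 21.7 CPM (18.0 to 25.9) in the naïve library, 9.75 CPM (5.87 to 15.2) after physical injury and 12.3 CPM (8.24 to 17.7) after ischemic injury, against 51.7, 32.3 and 49.9 CPM in cluster 2 and 26.6, 15.7 and 24.6 CPM in cluster 1. *Myh11*, the smooth muscle myosin heavy chain, was at 41.3, 51.3 and 53.0 CPM against 118, 132 and 113 CPM in cluster 2. Against cluster 1 its log2 ratio was small (-0.37, -0.15 and -0.22). *Carmn*, a long noncoding RNA of smooth muscle, was at 94.9, 204 and 105 CPM in cluster 0, 153, 429.9 and 266 CPM in cluster 1 and 213, 450.2 and 316 CPM in cluster 2. *Carmn* is thus below both neighbours in every library, but under 2-fold against cluster 1 in the naïve library.

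With every cell thinned to 1000 UMIs (4 of the 2164 cells had fewer and were left out), a median naïve cell of cluster 0 held 31 UMIs of the AP-1 and EGR list (quartiles 23 and 42), against 6 (2 and 12) in cluster 1 and 5 (2 and 12) in cluster 2. After physical injury the medians were 12, 2 and 2, and after ischemic injury 28, 3 and 4. Unthinned and per 1000 UMIs, the naïve median of cluster 0 was 31.9. Only 1.61%, 3.02% and 0.394% of cluster 1 cells and 1.14%, 7.62% and 1.47% of cluster 2 cells reached the median of cluster 0 in their own library. For the heat shock list the medians were 14, 11 and 11 UMIs in cluster 0 and between 5 and 6 in clusters 1 and 2, and 7.01%, 8.72% and 9.45% of cluster 1 cells and 5.6%, 5.9% and 9.52% of cluster 2 cells reached the median of cluster 0. These shares were larger than those of the AP-1 and EGR list in each case but cluster 2 after physical injury. Across the 1277 naïve cells of cluster 0, Pearson's r between the thinned counts of both lists was -0.028, and it was 0.12 over 381 physical injury and 0.084 over 502 ischemic injury cells. The values in cluster 1 were 0.28, 0.28 and 0.27 and in cluster 2 0.27, 0.26 and 0.18. They describe sparse counts taken from the same cells and libraries.

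**Figure D2:**
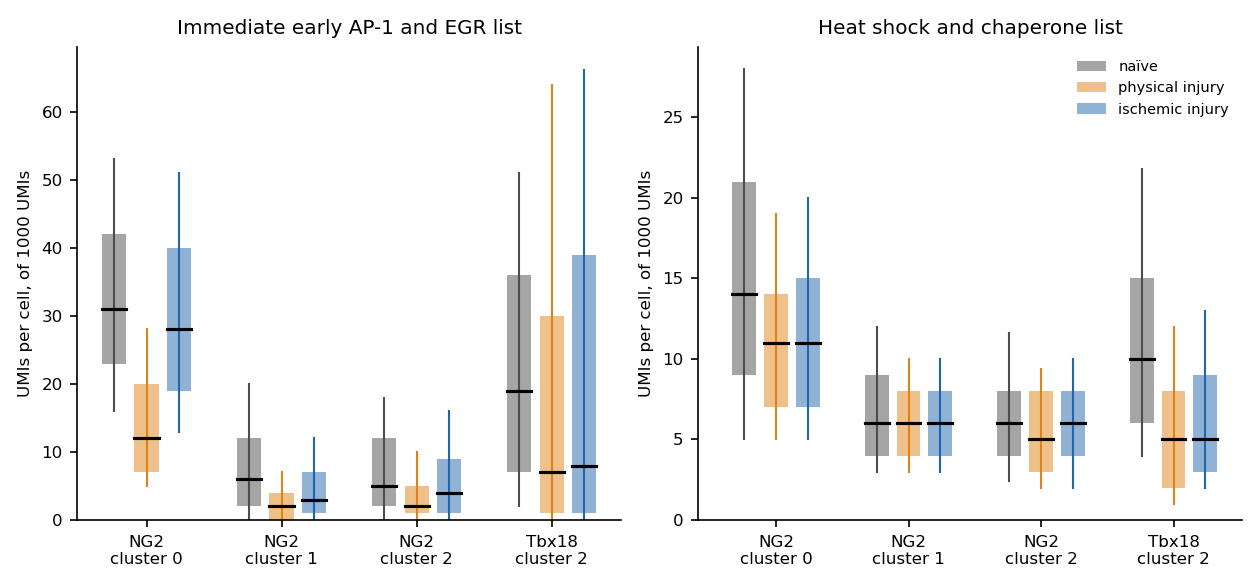
UMIs per cell of the AP-1 and EGR list (left) and the heat shock and chaperone list (right) in cells thinned to 1000 UMIs, for clusters 0, 1 and 2 of the NG2 line and cluster 2 of the Tbx18 line. Boxes span the quartiles, black bars are medians and thin lines run from the 10th to the 90th percentile of the cells of 1 library. Cluster 0 has the highest NG2 medians, 31, 12 and 28 on the left and 14, 11 and 11 on the right.

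High AP-1 and EGR levels were also measured in other clusters. The summed level of the list was 33304, 15048 and 30828 CPM in cluster 0. It was 29034, 25210 and 27696 CPM in the smooth muscle-like cluster 3 and 28766, 24090 and 21711 CPM in the endothelial-like cluster 5. The mesenchymal-like cluster 8 stood at 33637 CPM in the naïve library, above cluster 0, and at 10839 and 15872 CPM in the injured libraries, against 8229, 2916 and 4530 CPM in cluster 1 and 8028, 4000 and 6455 CPM in cluster 2. Of the thinned cells of cluster 3, 44.4%, 81.2% and 48.9% reached the cluster 0 median, of cluster 5, 44.0%, 79.6% and 37.7%, and of cluster 8, 46.6%, 35.0% and 20.7%. The heat shock list was distributed otherwise. At 15647, 11712 and 11549 CPM it was highest in cluster 0 among the 11 clusters in every library, followed by the oligodendrocyte-like cluster 4 at 11261, 10471 and 9475 CPM, while cluster 3 stood at 6392, 6688 and 7174 CPM. Single genes weigh heavily in these sums. The most abundant member was *Hspa1a* in cluster 0, at 5392, 3702 and 3032 CPM. In cluster 4 it was *Cryab*, at 4435, 3401 and 2814 CPM.

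**Figure D3:**
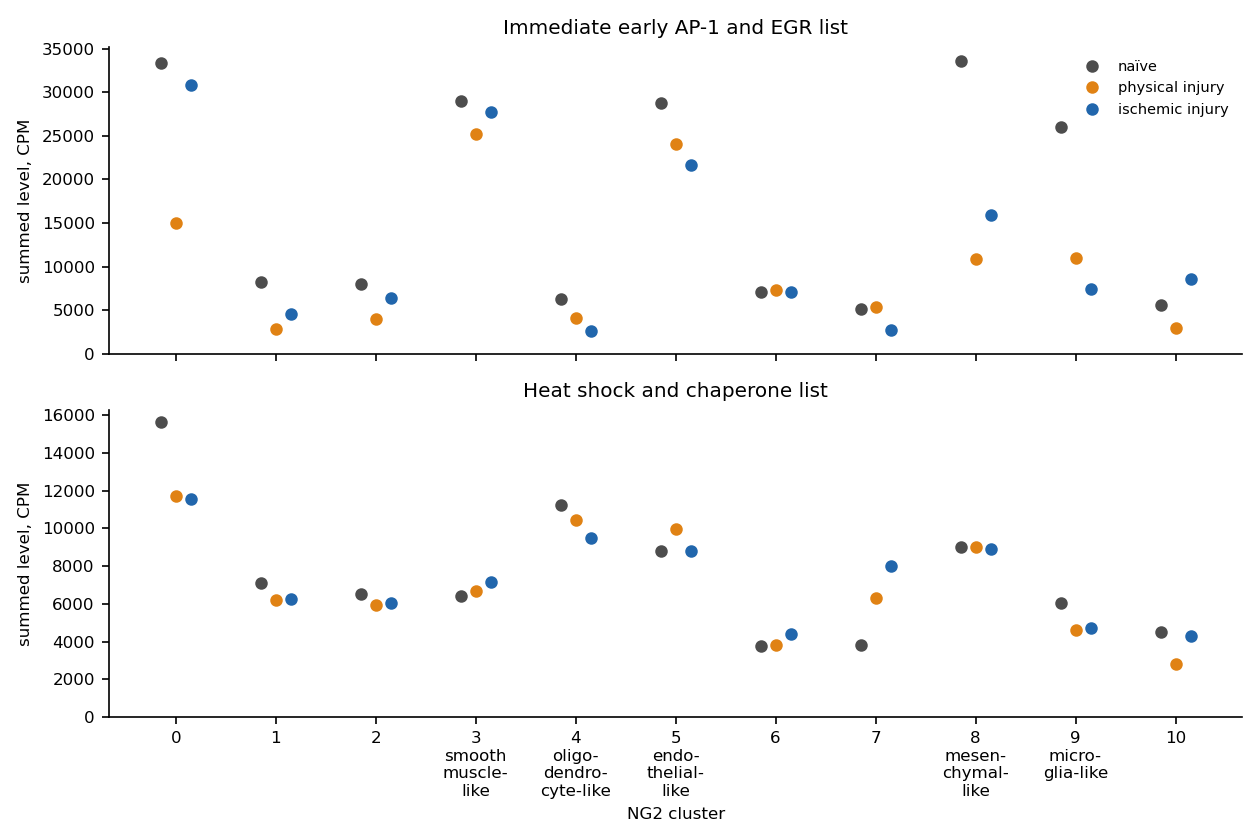
Summed level in CPM of the AP-1 and EGR list (top) and the heat shock and chaperone list (bottom) in each of the 11 NG2 clusters, with 1 point per library (naïve grey, physical injury orange, ischemic injury blue) and no replicate. Clusters with a marker-based name are labelled with it. In the naïve library the top list is high in clusters 0, 3, 5, 8 and 9, and the bottom list is highest in cluster 0 in every library.

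The genes whose levels were most like those of *Jun* over 31 cluster and library levels of the NG2 line, by Pearson's r among 7823 genes, were *Jund* (0.91), *Fos* (0.85), *Dusp1* (0.84), *Egr1* (0.84) and *Ier2* (0.83). These levels share libraries and depth, and the values are a description. Among clusters 0, 1 and 2 of the Tbx18 line *Vtn* was highest in cluster 2, at 12420.3, 7714 and 8131 CPM. The thinned cells of Tbx18 cluster 2 spread widely on the AP-1 and EGR list, with quartiles of 7 and 36 UMIs around a median of 19 in the naïve library. Of them, 36.3%, 42.0% and 36.0% reached the median of NG2 cluster 0 in the matching condition.

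The second question the design poses is what differs in cluster 0 between the uninjured and injured cortex, and here each condition is a single pooled library. Physical injury against naïve gave 13 genes at least 2-fold higher (0.187% of 6970) and 24 lower (0.344%). Ischemic injury against naïve gave 31 higher (0.449% of 6899) and 7 lower (0.101%). The 31 include the Y-linked *Ddx3y*, *Eif2s3y* and *Uty* and the 7 include *Xist* and its antisense RNA *Tsix*, and the pools differ in their share of cells with these transcripts. Ischemic against physical injury gave 44 higher (0.635% of 6926) and 20 lower (0.289%). These comparisons share libraries, and the counts rest on the level filter, since a minimum of 5 CPM in place of 20 CPM gave 71 genes in place of 13 for the first of them. Most genes called in cluster 0 had the same sign in both neighbours. This held for 11 of 13, 23 of 24, 30 of 31, 6 of 7, 36 of 44 and 17 of 20 genes in the order given. The share over all genes tested is not given here, so nothing particular to the called genes is read from these counts.

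All 22 genes that mark cluster 0 were lower in the physical injury than in the naïve library, with a median log2 ratio of -0.96, and the same genes had a median of -0.91 in clusters 1 and 2 pooled. *Fos* had a log2 ratio of -1.13 (-1.16 to -1.09) in cluster 0 and -1.13 (-1.19 to -1.07) in the pooled neighbours. *Jun* gave -1.24 (-1.28 to -1.21) and -1.40 (-1.45 to -1.35), and *Egr1* -1.38 (-1.44 to -1.32) and -1.27 (-1.38 to -1.16). The lower AP-1 level after physical injury was therefore measured in all 3 of these clusters. It was not alike in other cell types of that library. The thinned medians of the AP-1 and EGR list, naïve and physical injury, were 28 and 25 UMIs in cluster 3 and 26 and 22 in cluster 5. They were 27 and 8 in cluster 8. *Malat1*, a nuclear noncoding RNA, ran the other way and was highest in the physical injury library in clusters 0, 1 and 2. In cluster 0 it stood at 51635, 67514 and 48021 CPM (naïve, physical and ischemic injury). It stood at 44709.9, 51046 and 38499 CPM in cluster 1 and at 64761, 79779 and 61932 CPM in cluster 2. The part of *Malat1* in the lower AP-1 level was not tested. *Atf3* was further apart, at -2.07 (-2.28 to -1.88) in cluster 0 and -1.36 (-1.81 to -1.02) in the neighbours. In the AP-1 and EGR list, 5 of 9 genes were called lower in cluster 0 (0.344% of all genes tested; in thinned cells *Jund* lost its call) and the median was -1.04, against 0.0047 for all genes.

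**Figure D4:**
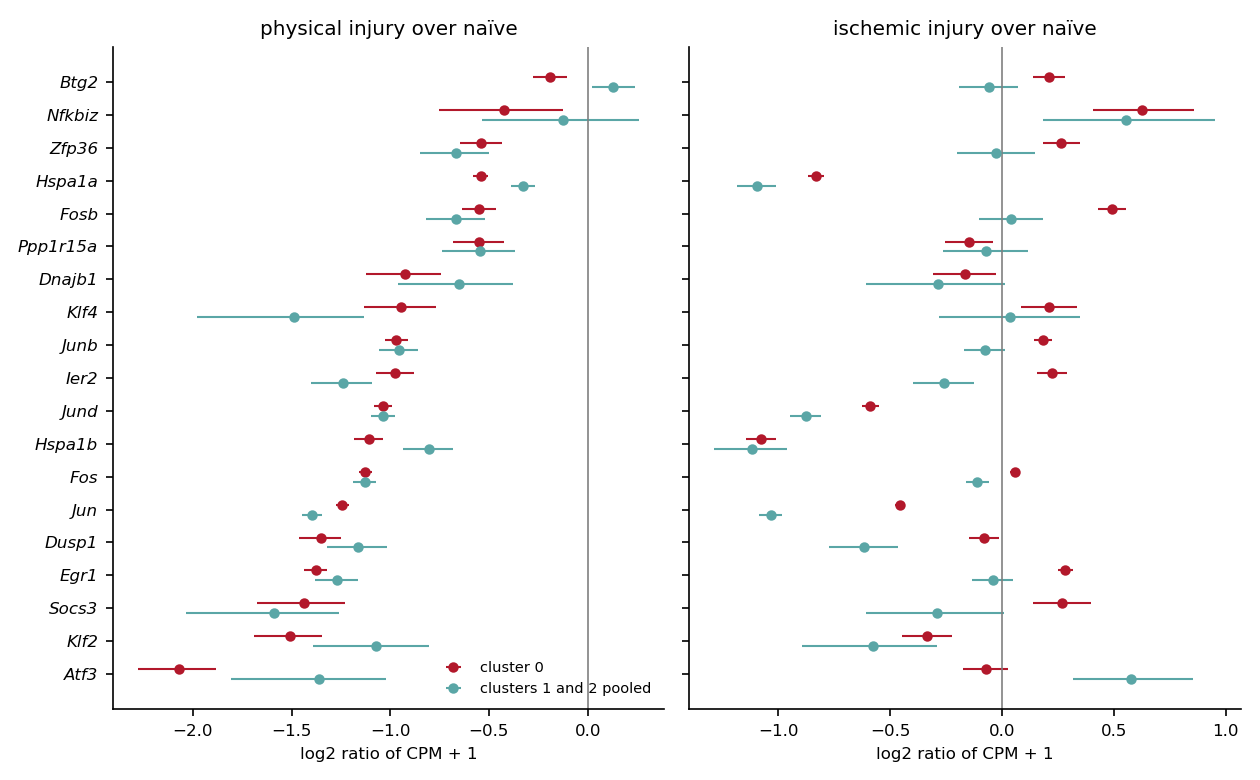
Log2 ratios (CPM + 1) of the 19 immediate early, feedback, KLF and heat shock genes that mark cluster 0, for physical injury over naïve (left) and ischemic injury over naïve (right), in cluster 0 (red) and in clusters 1 and 2 pooled (teal), with 95% intervals from counting error in 1 library per condition. All 19 cluster 0 values on the left are below 0, and 10 of 19 on the right are above 0.

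In the ischemic injury library these genes lay on either side of the naïve level, from *Hspa1b* at -1.08 and *Hspa1a* at -0.83 to *Cxcl1* at 1.49. Of the 22, 13 were higher than in the naïve library, with a median log2 ratio of 0.12 (-0.075 in the pooled neighbours), and 21 of 22 were higher than in the physical injury library (median 1.09, against 0.66 in the pooled neighbours). *Fos* had 0.056 (0.034 to 0.078) and *Egr1* 0.28 (0.25 to 0.32), whereas *Jun* was lower at -0.46 (-0.48 to -0.43) and *Jund* at -0.59 (-0.63 to -0.55). *Cxcl1* had the largest ratio of the 22 in cluster 0, at 1.49 (1.30 to 1.72), and 0.72 (0.15 to 1.40) in the neighbours, with overlapping intervals. *Nfkbia*, a target and inhibitor of NF-κB, was 2-fold higher at 1.04 (0.91 to 1.18) but under 2-fold in thinned cells. Also 2-fold higher were the cell cycle regulator *Sertad1* at 1.38 (1.18 to 1.62) and *Rgs16*, a regulator of G protein signalling, at 1.32 (1.01 to 1.70).

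Some interferon response genes stood higher in cluster 0 after ischemic injury, at low levels. *Isg15*, a ubiquitin-like modifier induced by type I interferon, stood at 14.9 CPM (11.9 to 18.5) in the naïve library, 48.7 CPM (39.4 to 59.6) after physical injury and 72.5 CPM (62.1 to 84.2) after ischemic injury. *Irf9*, the DNA-binding subunit of the interferon-activated complex ISGF3, stood at 13.5, 27.2 and 44.5 CPM, and *Ifit3*, an antiviral effector, at 13.1, 16.9 and 39.0 CPM. All 3 were lowest in the naïve and highest in the ischemic injury library. Of 15 listed interferon genes that passed the filter, 5 were at least 2-fold higher than in the naïve library (*Isg15*, *Irf9*, *Ifit3*, *Ifit2* and *Irf1*), against 0.449% of all genes tested, and the list median was 0.73, against -0.0027 for all genes. The 5 were under 20 CPM in the naïve library and passed the filter through the ischemic injury library. Over all 21 listed genes without the filter the median was 0.89, and over the 9 with at least 20 CPM in both libraries it was 0.57, with 0 genes called. Without cells bearing markers of other types 1 of the 5 remained called (*Irf1*), and the log2 ratio of *Isg15* was 0.77 in place of 2.21, that of *Irf9* 0.98 in place of 1.65 and that of *Ifit3* 0.90 in place of 1.5. In thinned cells *Irf9* and *Ifit2* lost their calls. The list medians in clusters 1 and 2 were 0.65 and 0.45, with 3 genes called in each (0.595% and 0.437% of all genes tested). After physical injury the list median in cluster 0 was -0.025, with *Isg15* as its 1 called gene.

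Several of the largest library differences were shared by cell types. *Cdk8*, a kinase of the Mediator complex, stood at 146 CPM (136 to 156) in the naïve library, 846 CPM (806 to 888) after physical injury and 1582 CPM (1531 to 1633) after ischemic injury in cluster 0, and it was higher in both injured libraries in all clusters but cluster 7. *Cmss1* (865, 3525 and 4528 CPM in cluster 0) and *Camk1d* (249.8, 726 and 666 CPM), a calcium/calmodulin-dependent kinase, were likewise higher in both injured libraries in all clusters but cluster 7. What sets these levels was not tested. The study's methods name a range of Cell Ranger versions, which differ in whether intronic reads are counted by default, and whether all libraries were counted alike is not given in the sources used here. *Spp1*, the secreted phosphoprotein osteopontin, was at 329.9, 70.3 and 210.3 CPM in cluster 0, with log2 ratios of -2.22 (-2.49 to -1.98) for physical injury over naïve in cluster 0 and -1.10 (-1.25 to -0.96) in the neighbours. A minority of the naïve cells, which a separate clustering of the naïve cells places in its cluster 7, held much of the naïve *Spp1*. They were 77 cells of cluster 0, 102 of cluster 1 and 63 of cluster 2. That clustering held no injured cells, and matching cells were not sought in the injured libraries. Without the cells of naïve cluster 7 the naïve level was 146 CPM in place of 329.9 CPM in cluster 0. In the pooled neighbours it was 65.6 CPM in place of 289.5 CPM. The log2 ratio for physical injury was then -1.04 (-1.33 to -0.79) in cluster 0 and 1.03 (0.85 to 1.23) in the neighbours. That for ischemic injury was 0.53 (0.36 to 0.69) in place of -0.65 and 1.54 (1.36 to 1.75) in place of -0.59. The cells left out are high in *Spp1* and were left out of the naïve library alone, so the ratios had to rise. Nothing is read from the change of sign.

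*Hspa1a*, *Hspa1b* and *Hsph1* were lower in both injured libraries, but not within each sex-linked class of cells. *Hspa1a* had a log2 ratio of -0.54 (-0.58 to -0.51) for physical injury and -0.83 (-0.87 to -0.79) for ischemic injury over naïve, *Hspa1b* -1.11 (-1.18 to -1.04) and -1.08 (-1.15 to -1.01), and *Hsph1* -0.45 (-0.63 to -0.27) and -1.12 (-1.34 to -0.93). By the 2-fold rule *Hspa1b* was called lower in both libraries and *Hsph1* after ischemic injury only, against 0.344% and 0.101% of all genes tested. The median of the whole heat shock list was -0.085 and -0.12. Animals of both sexes were pooled, and cells were therefore also divided by their UMIs of *Xist*, the RNA that coats the inactive X chromosome in female cells, and of Y-linked genes, a division chosen after the values were seen. Naïve cluster 0 held 882 cells with *Xist* and no Y-linked UMI (68.9%), 182 with a Y-linked UMI and no *Xist* (14.2%), 15 with both and 201 with neither. The physical injury library held 259 and 74 cells of these classes and the ischemic injury library 175 and 196, so the classes were not in the same proportion in the libraries compared. The thinned heat shock median was 17 UMIs (quartiles 12 and 23) in the naïve *Xist* class and 7 (4 and 10) in the naïve Y-linked class.

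In the naïve library *Hspa1b* stood at 2404 CPM in the *Xist* class of cluster 0 and at 256 CPM in the Y-linked class, and *Hspa1a* at 6391 and 1594 CPM. The direction was shared by the neighbours, with *Hspa1b* at 467 and 96.6 CPM in cluster 1 and at 460.0 and 121 CPM in cluster 2. After physical injury both classes of cluster 0 were level, at 919 and 923 CPM, and after ischemic injury the order was reversed, at 615 and 1058 CPM. *Fos* differed little between the classes in any library (9087 and 10502 CPM, 4264 and 4581 CPM, and 10495 and 9562 CPM). Within the *Xist* class, the log2 ratio of *Hspa1b* over naïve was -1.39 (-1.47 to -1.30) for physical and -1.97 (-2.10 to -1.84) for ischemic injury. Within the Y-linked class the sign turned, to 1.85 (1.60 to 2.11) and 2.04 (1.83 to 2.27), and *Hspa1a* turned likewise, to 1.20 (1.09 to 1.31) and 1.07 (0.98 to 1.17). Cluster 0 remained above both neighbours for *Hspa1a* and *Hspa1b* within either class in every library, by at least 1.07 on the log2 scale. This did not extend to all heat shock genes. In the naïve Y-linked class *Dnajb1* stood at 96.0 CPM in cluster 0, against 54.7 and 43.0 CPM in the neighbours, under 2-fold against cluster 1 (log2 ratio 0.80, 0.21 to 1.44), and *Hsph1* was level at 33.3, 35.4 and 33.4 CPM. The sex, the animals and the pool of a cell cannot be told apart here, and the cause of the naïve difference was not tested.

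**Figure D5:**
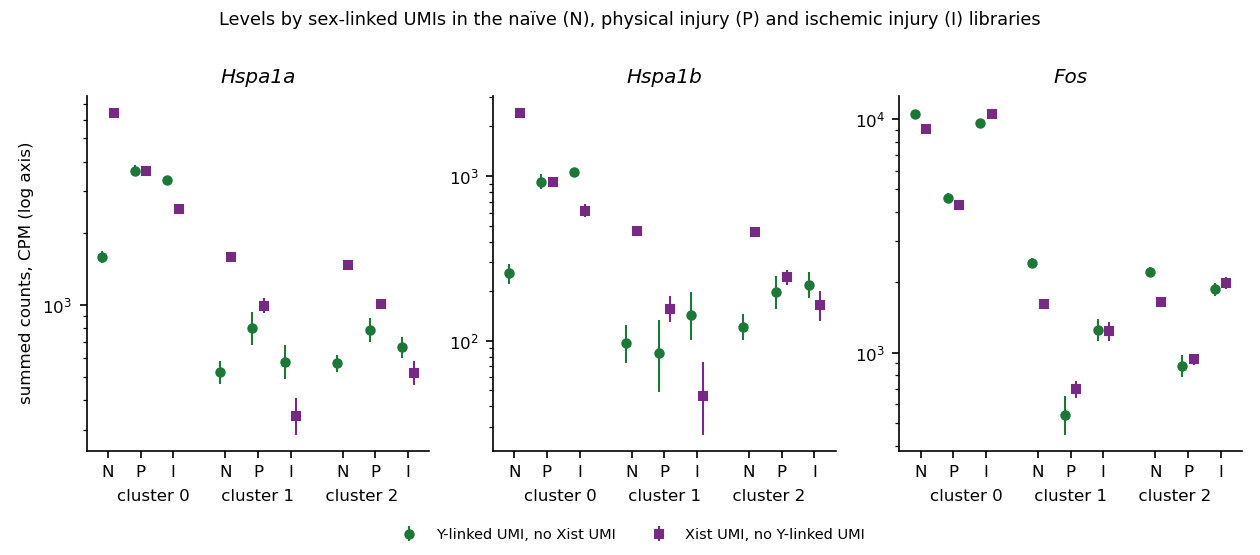
Levels in CPM (log axes) of *Hspa1a*, *Hspa1b* and *Fos* in cells with a Y-linked UMI and no *Xist* UMI (green circles) and in cells with an *Xist* UMI and no Y-linked UMI (purple squares), for clusters 0, 1 and 2 of the naïve (N), physical injury (P) and ischemic injury (I) libraries, with exact Poisson 95% intervals. In naïve cells both heat shock genes are higher in the *Xist* class, while the classes lie close together for *Fos*.

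The separate clustering that the authors deposited for the naïve libraries divides the 1280 naïve cells of cluster 0 further. It places 605 of them in its cluster 0, 441 in its cluster 3, 154 in its cluster 8, 77 in its cluster 7 and 3 elsewhere. The heat shock list summed to 23460.1 CPM in the cells of naïve cluster 3, against 10137 CPM in naïve cluster 0, 11088 CPM in naïve cluster 7 and 16528 CPM in naïve cluster 8, while the AP-1 and EGR list stood at 35453, 34191, 37313 and 25115 CPM. The high heat shock cells of naïve cluster 3 had *Ddx3y*, a Y-linked helicase, at 1.10 CPM, against 70.6 CPM in those of naïve cluster 0. *Xist* was at 771 and 469 CPM. The cells of naïve cluster 7 had *Spp1* at 3501 CPM, against 77.5 CPM in those of naïve cluster 0.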

How the data were processed

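The authors aligned the libraries to mm10 with Cell Ranger (7.0.0 in the submitters' processing notes; the study's methods give a range of versions up to it, and which library was counted with which is not given in the sources used here), filtered cells in Seurat and clustered them. They deposited raw UMI counts per gene and cell, cluster labels, and the percent of mitochondrial transcripts per cell, which they had limited to 12%. Doublets were not called here.

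Counts of the 22833 genes were summed by cluster and library. Ratios took a pseudocount of 1 CPM and a minimum mean of 20 CPM, with mitochondrial genes left out. Likeness to *Jun* used clusters with at least 20 cells in a library (31 levels). Named genes were listed members, the 15 furthest each way between clusters and the 10 furthest each way between libraries or in library ratios against clusters 1 and 2. Genes outside this rule were named after their values were seen (*Ctnna3*, *Dgkb* and *Zbtb7c*). Some genes are not reported here. The members and lists were chosen with earlier results of these data known.

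Gene positions came from GENCODE M21 and promoters from RefSeq GRCm38.p6. Scripts ran in Python 3.11.15 (numpy 2.4.6, pandas 2.3.3, scipy 1.17.1) and were tested on simulated data. Alternatives were TMM (edgeR 4.0.16, R 4.3.3) and median-of-ratios scaling, other filters and pseudocount, thinning, per-cell means, omission of cells with other types' markers or of each library, and, chosen after seeing the data, the sex-linked classes and *Spp1* without the cells of one naïve cluster, and other filters for the interferon list.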

Additional observations from a re-analysis of the deposited data

Results flagged for a closer look

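In 5 genes the ratio between libraries in cluster 0 had the opposite sign to that in clusters 1 and 2 pooled, with counting intervals apart, and the differences were not tested. Over naïve, the log2 ratio after physical injury was 0.51 in cluster 0 and -0.41 in the neighbours for *Aco1*, an iron-sulfur enzyme that also binds iron-responsive mRNA, -0.68 and 0.42 for *Gltp*, a glycolipid transfer protein, and -0.51 and 0.41 for *Ppp2r3d*, a phosphatase subunit. After ischemic injury over naïve it was 0.61 and -0.42 for *1700017B05Rik*. Between ischemic and physical injury it was -0.66 and 0.58 for *Gtpbp8*. Each value rests on 1 library per condition.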

How the results depend on the processing

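No paired analysis was possible because each condition is 1 library, so libraries have no pairs. Ratios between clusters were taken within each library and given with their SD and no test, since the clusters were formed on these values. The count of genes higher in cluster 0 than in cluster 1 (29) ran from 31 to 41, and of those higher than in cluster 2 (27) from 28 to 33, when 1 library was left out. Genes lower than in cluster 1 (0) became 1 with a minimum of 5 CPM, 2 with no filter, 1 with thinned cells, and 0 to 3 with 1 library left out (3 without the naïve, 1 without the physical injury library). Those lower than in cluster 2 (7) became 20 at 5 CPM and 29 with no filter, and 8 to 9 with 1 library left out. The counts between libraries moved most, under settings that by construction admit more low genes or hold fewer UMIs. In the order of 5 CPM, no filter, thinned cells and cells with markers of other types left out, physical injury over naïve gave 71, 279, 138 and 81 higher (13) and 72, 228, 115 and 52 lower (24). Ischemic injury over naïve gave 94, 321, 74 and 65 higher (31) and 42, 200, 83 and 76 lower (7). Ischemic over physical injury gave 138, 398, 178 and 126 higher (44) and 129, 370, 228 and 227 lower (20), and 13 lower with a pseudocount of 5 CPM. Some called genes were also lost. Without cells bearing other markers, 17 of the 31 higher and 3 of the 7 lower genes of ischemic injury over naïve stayed called, and 34 of the 44 and 12 of the 20 of ischemic over physical injury (34 and 9 in thinned cells). Of physical injury over naïve, 11 of the 13 and 21 of the 24 stayed called (12 and 17 in thinned cells). The filter for other markers took out 682 of 1280, 241 of 381 and 376 of 503 cells of cluster 0.

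The AP-1 and EGR median, 2.39 over cluster 1 and 2.02 over cluster 2, was 1.89 and 1.55 with no filter, and 2.21 to 2.58 and 1.92 to 2.09 with 1 library left out. The heat shock median over cluster 1 (0.29) was 0.36 without cells bearing other markers and 0.38 in cells with a Y-linked UMI and no *Xist* UMI, and 0.25 to 0.31 with 1 library left out. Over cluster 2 (0.39) it was 0.45 with TMM, 0.44 with median-of-ratios factors, 0.30 at 5 CPM, 0.33 with no filter and 0.51 without cells bearing other markers, and 0.37 to 0.40 with 1 library left out. The pericyte median over cluster 2 (-0.0022) was 0.062 with TMM and 0.054 with median-of-ratios factors, and -0.021 to 0.018 with 1 library left out, and over cluster 1 it was -0.12 to -0.041. Of 295 alternatives for 100 values of single genes, 10 changed sign and 66 moved beyond the spread with the same sign. *Tsix* in ischemic over physical injury became 0.72 in thinned cells. Within cells with a Y-linked UMI and no *Xist* UMI, the ratios to naïve after physical and ischemic injury became 1.20 and 1.07 for *Hspa1a*, 1.85 and 2.04 for *Hspa1b*, 2.11 and 1.91 for *Hsph1* and 0.52 and 0.47 for *Hspb1*, and that of *Fos* after ischemic injury became -0.14. The cause was not tested.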

Other observations

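Some genes of the circadian clock, a list chosen after the values were seen, stood at different levels in the libraries. In cluster 0 *Dbp*, an output factor of the clock, stood at 385 CPM in the naïve, 123 CPM in the physical injury and 321 CPM in the ischemic injury library. *Nr1d1*, the repressor REV-ERBα, stood at 328, 154 and 229 CPM, and *Arntl*, which encodes BMAL1, ran the other way at 15.1, 49.8 and 25.9 CPM. Of 13 listed genes that passed the filter, 3 were at least 2-fold lower and 1 higher in the physical injury library than in the naïve library, against 0.344% and 0.187% of all genes tested. In thinned cells *Nr1d1* and *Per3* lost their calls, and *Arntl*, under 20 CPM in the naïve library, passed the filter through the physical injury library. The list median was -0.52 in cluster 0 (0.0047 for all genes), -0.68 in cluster 1 and -0.76 in cluster 2. What sets these levels was not tested.

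*Fabp7*, a fatty acid binding protein of radial glia and glial precursors, stood at 10.0, 12.3 and 58.9 CPM in cluster 0, and its log2 ratio of ischemic injury over naïve was 2.44 in cluster 0 and 2.26 in clusters 1 and 2 pooled. In cluster 0 *Fabp7* was under 20 CPM in the naïve library and passed the filter through the ischemic injury library. The 7 radial glia markers, which include *Fabp7*, summed to 339, 354 and 505 CPM in cluster 0, with *Dbi* as the most abundant.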
